A study of Bos taurus with 2 samples.

Results

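The genes described here are 8 genes of fatty acid binding, uptake and lipid droplets, chosen by symbol from the feature list: LPL, CD36, FABP3, FABP4, FABP5, PLIN2, PLIN3 and PNPLA2. Each symbol matched 1 gene, and all 8 were detected among the 16816 genes with at least 1 UMI of 21867 genes listed. The cells came from the longissimus muscle of 1 Holstein bull calf aged 2 weeks and were isolated by pronase digestion and differential centrifugation. They were cultured for 1 week in growth medium with fetal bovine serum. From this culture 2 libraries were prepared on the 10x Genomics 3′ platform. There was no treated or untreated group, so the comparisons are between the 15 clusters of cells that the study defined, numbered from the largest (2493 cells) to the smallest (317 cells). The study named clusters 1 and 2 myoblasts, clusters 3 and 12 myocytes, clusters 4, 5 and 8 satellite cells, and clusters 7 and 9 fibro-adipogenic progenitors, and left the others unidentified.

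Muscle cells take up long-chain fatty acids and either burn them in mitochondria or store them as triglyceride in lipid droplets. LPL, a secreted lipase, frees fatty acids from lipoproteins, and CD36 carries them across the plasma membrane. Inside the cell, fatty acid binding proteins (FABPs) keep them soluble: FABP3 is the heart and skeletal muscle form, FABP4 the adipocyte form and FABP5 the epidermal form, which many cell types express. Perilipins (PLINs) coat the droplets, PLIN2 in most cell types and PLIN3 on newly formed droplets, and PNPLA2 (adipose triglyceride lipase) starts the breakdown of the stored triglyceride. In cattle, FABP4 and FABP5 lie on the same chromosome.

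A UMI marks 1 captured RNA molecule, and levels are given as UMIs per 10000 UMIs of a cluster, as the mean ± SD over both libraries (n = 2). Both libraries were drawn from the same culture of 1 calf and held different cells of it. The SD and every p-value thus measure the spread of cell sampling, counting and library preparation, not of animals. Counts were taken at the 3′ end and not scaled by length, so levels are compared between clusters and not between genes. Library 1 held 9939 cells and 145631299 UMIs, and library 2 held 9157 cells and 137818568 UMIs; 27 barcodes occurred in both. The median depth was 12929 to 23011 UMIs per cell in clusters 1 to 6, 8, 9, 11 and 12, and 5398.5 in cluster 10. Clusters 7, 13, 14 and 15 were shallow, with medians of 1389, 1631, 2513.5 and 647. Cluster 7 also stood apart in its ribosomal protein genes, which took 8.46% of its UMIs against 20.6% to 28.0% in the other clusters, and it held markers of myocytes (16.9 ± 2.0 UMIs per 10000 over 6 genes) beside PDGFRA.

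The defining adipocyte markers were at or near 0 in these cultures. ADIPOQ had 3 UMIs in all cells, LEP had 0, CIDEC had 18 and PLIN1 had 140, and the summed level of these 4 genes was 0 to 0.0179 UMIs per 10000 over the clusters. The 6 endothelial markers summed to 0 to 0.0277 and the 6 macrophage markers to 0 to 0.162, with the highest macrophage sum in cluster 7. PDGFRA, the marker of fibro-adipogenic progenitors, was at 1.58 ± 0.074 UMIs per 10000 in cluster 9 and 1.48 ± 0.36 in cluster 7, and at 0.502 or less in the others. The whole list of 6 fibro-adipogenic genes, which includes abundant collagens, ordered the clusters differently. It summed to 338 ± 4.5 UMIs per 10000 in cluster 7, 174 ± 4.4 in cluster 8 and 56.2 ± 0.94 in cluster 9. The sum of cluster 9 was below those of clusters 1, 4, 5, 10, 11 and 13. Clusters 6 and 15 were close to cluster 9, at 56.4 ± 0.41 and 55.9 ± 3.6. PAX7, the marker of quiescent satellite cells, did not exceed 0.0119 UMIs per 10000 in any cluster. The study had named cluster 4 satellite cells for its enriched PAX7, and clusters 5 and 8 for enriched PAX3. These genes had 176 and 316 UMIs in all cells.

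UMI totals of the 8 genes ranged widely. FABP3 gave 105836 UMIs and was seen in 79.6% of cells, PLIN2 gave 46247 UMIs in 75.8%, FABP5 21781 UMIs in 47.5% and PLIN3 15435 UMIs in 48.6%. PNPLA2 gave 3649 UMIs in 16.2% of cells, FABP4 1418 UMIs in 6.04% and LPL 1324 UMIs in 6.41%. CD36 gave 71 UMIs, in 70 cells (0.367%). The muscle form FABP3 was therefore seen in most cells, and the membrane transporter CD36 in hardly any. These are counts as captured at the 3′ end and give no order of expression between the genes.

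**Figure D1:**
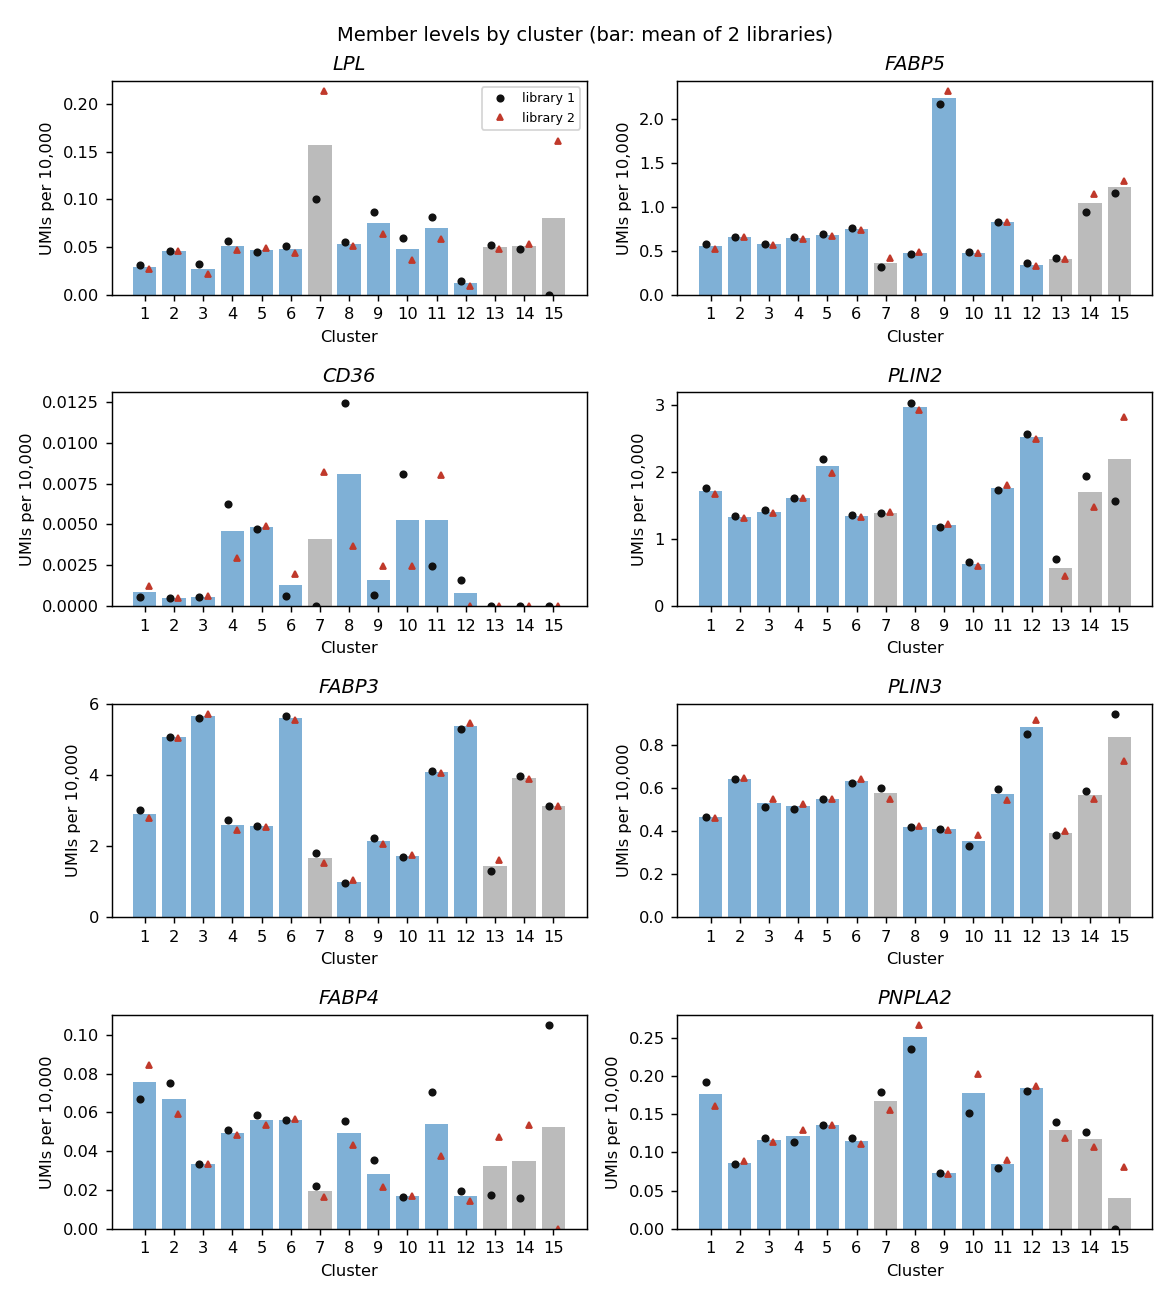
Level of each gene (vertical axes, UMIs per 10000 UMIs, scales differ) in the 15 clusters (horizontal axes), with bars for the mean of both libraries, circles for library 1 and triangles for library 2; grey bars mark clusters with a median under 5000 UMIs per cell. FABP5 peaked in cluster 9 (2.24), PLIN2 and PNPLA2 in cluster 8 (2.98 and 0.251), and FABP3 was lowest in cluster 8 (1.00).

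To ask which cells carried more or less of these transcripts, UMIs were summed per library in each cluster and in all other cells, and set against each other in edgeR by its quasi-likelihood test, with p-values adjusted over all genes tested by the Benjamini-Hochberg method. A gene is called higher or lower at an adjusted p under 0.05. Of the 120 pairs of gene and cluster, 63 (52.5%) were called, against 32.1% of all genes tested over the 15 clusters. The excess lay among lower calls. Of the pairs, 42 (35%) were called lower against 17.1% of all genes, and 21 (17.5%) higher against 14.9%. The shares of all genes were not matched for abundance, whose part was not tested. FABP3, FABP5, PLIN2 and PLIN3, with the most UMIs, were called lower in 8, 9, 6 and 6 clusters. FABP4, PNPLA2, LPL and CD36 were called lower in 5, 3, 3 and 2. The 15 comparisons of a gene share cells, so its pairs are not separate results. An absolute log2 fold change of 1 or more was reached by 19 of the called pairs. Of the 63 called pairs, 20 missed the threshold under at least 1 alternative, 10 of them with the other clusters weighted equally; those whose values are given here are named below. The clusters were defined on these same counts, so these calls describe how the clusters differ and are no independent evidence that such cell populations exist. TMM scaling, which sets the middle of all genes near no change, moved the median of all genes by -0.65 on the log2 scale in cluster 7 relative to plain UMI totals, by -0.22 to 0.18 in the other clusters, and by 0.51 for cluster 9 against cluster 7.

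**Figure D2:**
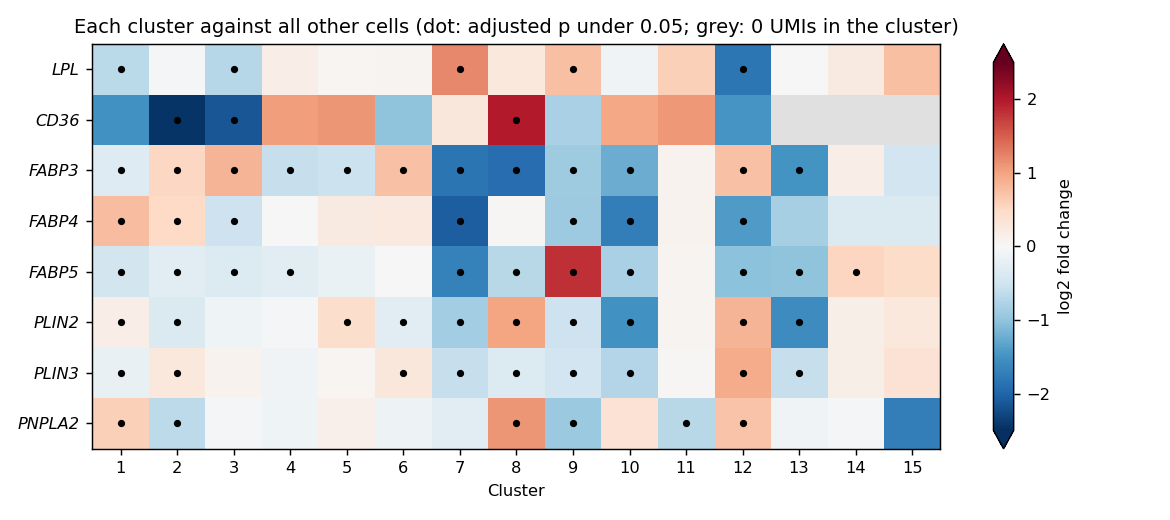
Log2 fold change of each gene (rows) in each cluster (columns) against all other cells, in colour, with a dot where the adjusted p is under 0.05; grey cells had 0 UMIs in the cluster. The strongest colours among abundant genes are FABP5 in cluster 9 (1.82) and FABP3 in cluster 8 (-1.91).

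FABP3, the muscle fatty acid binding protein, was highest in clusters 3, 6, 12 and 2 and lowest in cluster 8. In cluster 3 it was at 5.61 UMIs per 10000 in library 1 and 5.73 in library 2, in cluster 6 at 5.67 and 5.55, in cluster 12 at 5.31 and 5.47, and in cluster 2 at 5.07 and 5.05. In cluster 8 it was at 0.959 and 1.05. The libraries of these 5 clusters did not overlap between the high and the low end, and 10 of the 14 neighbouring pairs in the order of the 15 clusters were farther apart than their spread; clusters 3 and 6 were not.

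Against all other cells, FABP3 was called in 12 of 15 clusters, higher in 4 and lower in 8. The lower call in cluster 1 was lost with the other clusters weighted equally (-0.04, adjusted p = 0.694, edgeR). The higher calls were cluster 3 (log2 fold change 0.85, adjusted p = 3.80e-05, edgeR), cluster 12 (0.74), cluster 6 (0.72) and cluster 2 (0.51). The lowest was cluster 8 at -1.91 (SE 0.05, adjusted p = 1.58e-05), followed by cluster 7 at -1.82 (-1.17 with plain totals), cluster 13 at -1.49 and cluster 10 at -1.25. MYOD1, which drives myoblast commitment, was at 6.72 ± 0.43 UMIs per 10000 in cluster 2 and 6.35 ± 0.24 in cluster 3, against 0.892 ± 0.014 in cluster 8. The order was not that of MYOD1, which was also high in cluster 13 (6.75 ± 0.35) where FABP3 was low. Over the 15 clusters Pearson's r of FABP3 was 0.40 with MYOD1 and -0.62 with PDGFRA, on log2 levels that share the same libraries and depth.

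Depth sets how often a gene is seen in a cell, so each cell was also thinned to 2000 UMIs, which left out 990 cells of cluster 7, 425 of cluster 13, 166 of cluster 14 and all of cluster 15. FABP3 was then seen in 60.6% of cells in cluster 6 (95% exact binomial interval 58.1% to 63.0%), 59.1% in cluster 3 and 58.6% in cluster 2, against 17.4% (15.3% to 19.6%) in cluster 8. Unthinned, the shares were 98.9%, 97.3%, 97.2% and 61.8%. Intervals cover counting error only. No cell type in these cultures is known to lack FABP3, so the level of free RNA behind the lowest share was not tested. Within the clusters where it was highest FABP3 varied moderately between cells: in cluster 3 the median cell had 8 UMIs, the 90th percentile 20 and the highest cell 54. After thinning its variance was 1.48 times its mean in library 1 and 1.42 times in library 2, where a random draw of equal cells gives a ratio near 1.

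FABP4, the adipocyte form, was scarce and was highest in clusters 1 and 2. Clusters 7, 13, 14 and 15 held only 4, 3, 5 and 1 UMIs of FABP4, so its presence there is uncertain. Its level was 0.0669 UMIs per 10000 in library 1 and 0.0843 in library 2 of cluster 1, and 0.0749 and 0.0589 in cluster 2. In cluster 10 it was 0.0162 and 0.0171, and in cluster 12 0.0195 and 0.0144. The PPARG-expressing cluster 9 was among the low ones, at 0.0352 and 0.0213. Only 1 of the 14 neighbouring pairs in its order was apart beyond the spread.

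FABP4 was called higher in cluster 1 (log2 fold change 0.78, adjusted p = 0.0135, edgeR; 1.03 in library 2 alone and 0.48 in library 1 alone) and cluster 2 (0.49, adjusted p = 0.0484). The call in cluster 2 was lost under 5 of the alternatives (adjusted p up to 0.197 with best fitting profiles). It was called lower in 5 clusters: cluster 7 at -2.05, cluster 10 at -1.72 (SE 0.24, adjusted p = 0.00159), cluster 12 at -1.42, cluster 9 at -0.90 and cluster 3 at -0.51. The calls in clusters 9 and 3 were lost with the other clusters weighted equally (adjusted p = 0.109 and 0.460), the latter also with DESeq2. The call in cluster 7 rested on 4 UMIs and was lost without cells under 2000 UMIs (adjusted p = 0.121), and the plain ratio to all other cells was 0.376 (counting interval 0.102 to 0.965). FABP4 was spread thinly, with 21 cells of 4 or more UMIs, a limit set after the counts were seen, holding 7.83% of its UMIs. The cell with the most, 17 UMIs, lay in cluster 9 and held 22.4% of the 76 UMIs of FABP4 there.

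FABP5 had the clearest peak of the 8 genes. In cluster 9 it was at 2.16 UMIs per 10000 in library 1 and 2.31 in library 2, and in all other cells at 0.618 ± 0.010. The next clusters, 15 and 14, were at 1.22 ± 0.096 and 1.04 ± 0.14, and both rested on few UMIs (27 and 144). Cluster 12 was lowest at 0.366 and 0.321. Both libraries of cluster 9 thus lay above every library of every other cluster.

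The log2 fold change of FABP5 in cluster 9 was 1.82 (SE 0.06, adjusted p = 4.01e-06, edgeR). It stayed between 1.71 and 1.96 under all alternatives run, the lowest being library 1 alone. The only other higher call was cluster 14 (0.54, adjusted p = 0.0367; 0.67 in library 2 alone and 0.34 in library 1 alone), which was lost without a filter on low counts, with plain totals and without cells under 2000 UMIs (adjusted p = 0.0533, 0.0543 and 0.0646). Another 9 clusters were called lower, with -1.70 in cluster 7 (-1.05 with plain totals), -1.02 in cluster 12 and -1.01 in cluster 13, the last lost without cells under 2000 UMIs (adjusted p = 0.0522). With the other clusters weighted equally the small differences in clusters 2 and 4 were lost too (adjusted p = 0.0635 and 0.0560). Doublet scores marked 14.4% of the cells of cluster 9 against 7.316% of all cells; without the marked cells the fold change is within the range above.

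The peak was a property of most cells of cluster 9 rather than of a few. FABP5 was seen in 91.5% of them before thinning and in 31.0% (28.3% to 33.9%) after thinning, against 6.06% to 14.9% in the other 13 clusters that could be thinned. The median cell of cluster 9 had 4 UMIs and the 90th percentile 11. On top of this, 4 cells of cluster 9 and 1 of cluster 1 held 50 or more UMIs each, up to 159, a limit set after the counts were seen. Without these 4 cells the level in cluster 9 was 2.09 ± 0.073. The 4 cells were kept in the thinned counts. Thinned counts of FABP5 in cluster 9 had a variance of 2.59 times the mean in library 1 and 4.27 times in library 2. PLIN2 and PLIN3 stayed between 0.995 and 1.35 times in 3 clusters each. These were 8, 12 and 5 for PLIN2 and 12, 2 and 6 for PLIN3, the highest among clusters with enough thinned cells and UMIs. Few thinned UMIs per cell hold this ratio near 1, most of all for PLIN3. In cluster 14 the ratio of FABP5 was 1.18 in library 1 and 4.25 in library 2, on 19 and 32 UMIs.

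**Figure D3:**
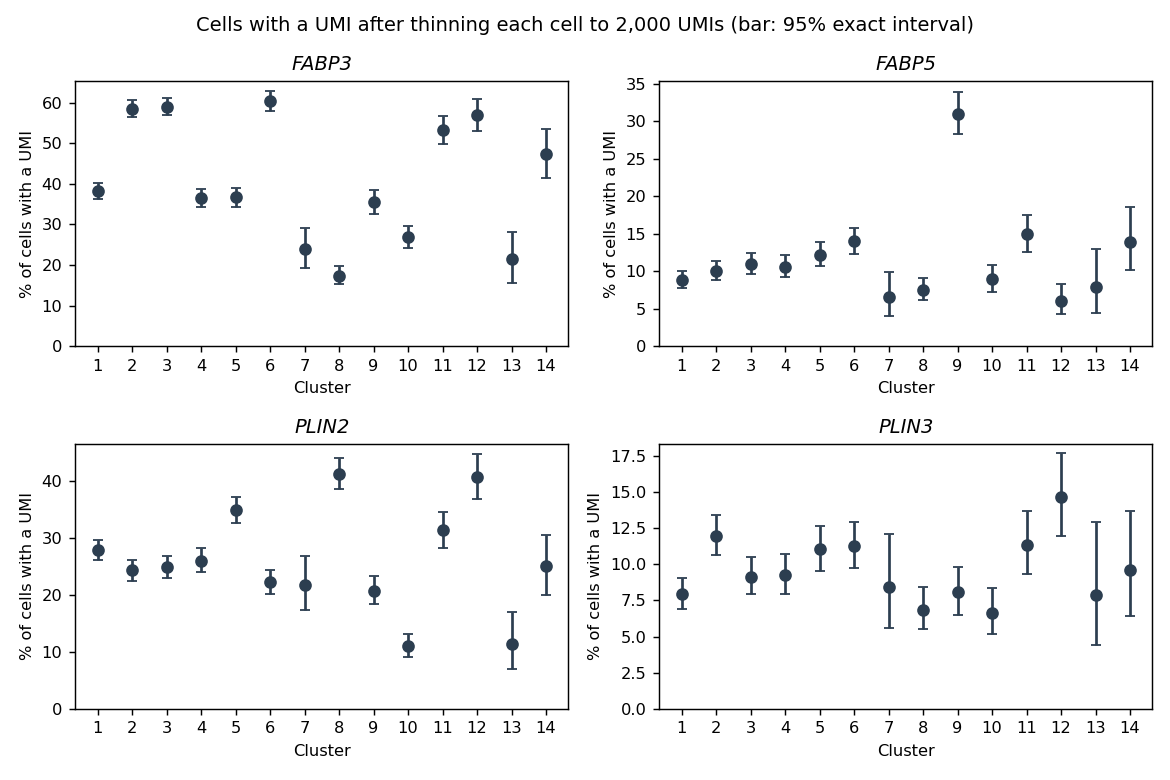
Percent of cells with at least 1 UMI (vertical axes) of FABP3, FABP5, PLIN2 and PLIN3 in each cluster (horizontal axes) after thinning every cell to 2000 UMIs; points are both libraries together and bars the 95% exact binomial interval. FABP5 stood at 31.0% in cluster 9 with no other cluster above 14.9%, whereas PLIN2 reached 41.3% in cluster 8 and 40.7% in cluster 12.

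LPL and CD36, which act at the vessel wall and the cell surface, were scarce. LPL was highest in cluster 7, at 0.1004 UMIs per 10000 in library 1 and 0.213 in library 2, from 9 and 26 UMIs. Among the clusters with a median of 5000 UMIs or more, cluster 9 was highest at 0.0866 and 0.0640, followed by cluster 11 at 0.0816 and 0.0588, while cluster 12 was lowest at 0.0146 and 0.00959. Cluster 15 had 0 UMIs in library 1 and 2 in library 2. The libraries of cluster 7 differed more between themselves than clusters 9 and 11 differed from each other.

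LPL was called higher in cluster 7 (log2 fold change 1.195, SE 0.35, adjusted p = 0.0352, edgeR) and cluster 9 (0.76, adjusted p = 0.00966), the clusters that also had the most PDGFRA. It was called lower in cluster 12 (-1.81, SE 0.27, adjusted p = 0.00173), cluster 3 (-0.72) and cluster 1 (-0.68). The call in cluster 7 was lost without a filter on low counts (adjusted p = 0.0603; range over the alternatives 0.000640 to 0.0603), and its log2 ratio was 1.71 in library 2 alone and 0.28 in library 1 alone. The call in cluster 9 was lost with the other clusters weighted equally (0.47, adjusted p = 0.114), and that in cluster 1 with best fitting profiles (adjusted p = 0.0559). After thinning LPL was seen in 4.87% of the 308 cells kept in cluster 7 (2.75% to 7.91%), 2.13% of cluster 9 (1.35% to 3.18%) and 0.159% of cluster 12 (0.00404% to 0.885%). Across the clusters its log2 level had a Pearson's r of 0.78 with that of PDGFRA and 0.59 with that of PPARG. Both values include clusters 13, 14 and 15, where LPL rested on 5, 7 and 2 UMIs, and were not computed in single libraries.

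CD36 allowed few statements at 71 UMIs. Cluster 8 held 14 of them, 11 in library 1 and 3 in library 2, and its ratio to all other cells was 3.85 (counting interval 1.98 to 7.01; adjusted p = 0.0372, edgeR), with log2 ratios of 2.60 in library 1 alone and 0.70 in library 2 alone. Clusters 2 and 3 held 2 UMIs each, with ratios of 0.179 (0.0212 to 0.671) and 0.203 (0.0241 to 0.763), and both were called lower. With the other clusters weighted equally none of these 3 calls remained (adjusted p from 0.0534 to 0.0788). The call in cluster 3 was also lost with DESeq2 (adjusted p = 0.2275). Clusters 13, 14 and 15 had 0 UMIs, which at their depth allows levels of up to 0.0302, 0.0218 and 0.137 UMIs per 10000, above the level in cluster 8 (0.00807 ± 0.0062). CD36 was seen in 1.05% of the cells of cluster 8 and in 0.403% after thinning. Marker genes of endothelial cells and macrophages, which carry CD36 in tissue, summed to 0.00953 and 0.0235 UMIs per 10000 in cluster 8.

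PLIN2, the droplet coat protein of most cell types, was highest in cluster 8 and second in cluster 12. It was at 3.03 UMIs per 10000 in library 1 and 2.92 in library 2 of cluster 8, at 2.56 and 2.49 in cluster 12, and at 2.19 and 1.98 in cluster 5. The lowest levels were 0.698 and 0.451 in cluster 13 and 0.665 and 0.602 in cluster 10. Cluster 8 was apart from cluster 12 beyond the spread, and clusters 10 and 13 were not apart from each other.

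PLIN2 was called higher in 4 clusters, at a log2 fold change of 0.99 for cluster 8 (SE 0.04, adjusted p = 6.03e-05, edgeR), 0.85 for cluster 12, 0.43 for cluster 5 and 0.16 for cluster 1, the last lost under 4 alternatives (adjusted p up to 0.164). It was called lower in 6, with -1.58 in cluster 13 and -1.51 in cluster 10 (SE 0.07, adjusted p = 2.38e-05). After thinning it was seen in 41.3% (38.5% to 44.1%) of cells of cluster 8 and 40.7% of cluster 12, against 10.99% (9.13% to 13.1%) of cluster 10. Its thinned counts had a variance of 1.09 and 1.16 times the mean in the libraries of cluster 8. With 378 and 322 thinned UMIs in 1241 cells, counting noise holds this ratio near 1, so it does not show evenness between cells.

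PLIN3, which binds newly formed droplets, varied least, 2.47-fold between the highest and lowest of the 11 clusters with a median of 5000 UMIs or more. It was at 0.850 and 0.914 UMIs per 10000 in the libraries of cluster 12 and at 0.330 and 0.384 in those of cluster 10. It was called higher in cluster 12 (log2 fold change 0.92, SE 0.06, adjusted p = 4.03e-05, edgeR), cluster 6 (0.29) and cluster 2 (0.27), and lower in 6 clusters down to -0.73 in cluster 10. In cluster 7 the call was lower (-0.57) with TMM scaling, and the value was 0.07 with plain totals. The lower call in cluster 13 was lost under several alternatives (adjusted p up to 0.212, without cells under 2000 UMIs). That in cluster 1 was lost with DESeq2 and with the other clusters weighted equally (adjusted p = 0.0612 and 0.149). Unlike PLIN2, PLIN3 was called lower in cluster 8 (-0.35, adjusted p = 0.00244).

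PNPLA2, the lipase that opens triglyceride breakdown, was highest in the cluster where PLIN2 was highest. In cluster 8 it was at 0.236 and 0.266 UMIs per 10000, in cluster 12 at 0.180 and 0.187 and in cluster 9 at 0.0732 and 0.0714. Its log2 fold change was 1.10 in cluster 8 (SE 0.07, adjusted p = 0.000210, edgeR), 0.72 in cluster 12 and 0.60 in cluster 1, all called higher, and -0.93 in cluster 9, -0.69 in cluster 11 and -0.66 in cluster 2, all called lower. After thinning it was seen in 5.32% (4.14% to 6.72%) of cells of cluster 8 and 1.57% (0.920% to 2.51%) of cluster 9. Over the 15 clusters the log2 level of PNPLA2 had a Pearson's r of -0.75 with that of FABP5. This r includes cluster 15, where PNPLA2 rested on 1 UMI. Only 4 of the 14 neighbouring pairs in the order of PNPLA2 were apart beyond the spread.

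Read by cluster, the genes fell into different combinations. In cluster 8, PLIN2, PNPLA2 and CD36 were called higher and FABP3, FABP5 and PLIN3 lower, 3 and 3 of 8 against 22.5% and 23.5% of all genes. In cluster 12, FABP3, PLIN2, PLIN3 and PNPLA2 were called higher and FABP4, FABP5 and LPL lower, against 24.8% and 29.5% of all genes. In cluster 9, FABP5 and LPL were called higher and FABP3, FABP4, PLIN2, PLIN3 and PNPLA2 lower, against 25.3% and 27.7%.

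In cluster 3, FABP3 was called higher and FABP4, FABP5, LPL and CD36 lower, against 24.5% and 25.4% of all genes. In cluster 10, 5 genes were called lower and 0 higher, against 21.9% and 16.7% of all genes. DESeq2 called 0 higher too, and PNPLA2 (0.37) had an unadjusted p under 0.05 and passed the threshold in edgeR with plain totals and with the library as a block (adjusted p = 0.0333 and 0.0129). In cluster 7, LPL was called higher and 5 genes lower, against 18.3% and 26.4%. With plain totals LPL was again called higher and 3 genes lower, against 36.6% and 12.5% of all genes. In cluster 15, at 219359 UMIs in all, 0 of the 8 genes were called by edgeR or DESeq2, and 1, FABP3 (-0.47), had an unadjusted p under 0.05.

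The 2 clusters named fibro-adipogenic progenitors were compared directly. FABP5 was at 2.24 ± 0.11 UMIs per 10000 in cluster 9 and 0.365 ± 0.075 in cluster 7, a log2 fold change of 3.10 (SE 0.16, adjusted p = 1.11e-05, edgeR; 2.59 with plain totals). FABP3 was at 2.16 ± 0.12 and 1.67 ± 0.19, a log2 fold change of 0.89 (SE 0.12, adjusted p = 0.000565; 0.38 with plain totals and still called). The FABP5 libraries of the clusters were far from overlapping and those of FABP3 were close, at 2.08 for the lower library of cluster 9 and 1.81 for the higher of cluster 7.

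The other differences between clusters 9 and 7 turned on the scaling, the fit or the choice of cells. PLIN2 was called higher in cluster 9 with TMM scaling (log2 fold change 0.30, adjusted p = 0.0448), was at -0.21 with plain totals and missed the threshold with the library as a block (adjusted p = 0.0666; range over the alternatives 0.00845 to 0.267). PNPLA2 was called lower (-0.69, adjusted p = 0.0433) and missed it with that block (adjusted p = 0.0650; range 0.00411 to 0.148). PLIN3 (0.02, SE 0.13), LPL (-0.61, SE 0.37) and FABP4 (1.09, SE 0.66) were not called, and CD36 was not tested. Over the alternatives the adjusted p went from 0.0144 to 0.941 for PLIN3, 0.0300 to 0.327 for LPL and 0.124 to 0.570 for FABP4. PLIN3 and LPL thus passed the threshold under at least 1 alternative. In all, 3 of 7 genes tested were called higher and 1 lower, against 29.9% and 26.6% of all genes. With plain totals 2 were called higher and 3 lower, against 17.7% and 42.5%. The low depth and low ribosomal share of cluster 7 move with this comparison, and their part in it was not tested.

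Clusters 3 and 12, which the study named myocytes, were compared as well. MYOG, the regulator of terminal myogenic differentiation, was at 18.6 ± 0.78 UMIs per 10000 in cluster 12 and 6.68 ± 0.11 in cluster 3. PLIN2 was at 2.53 ± 0.051 in cluster 12 and 1.41 ± 0.030 in cluster 3, a log2 fold change of 0.94 (SE 0.06, adjusted p = 1.27e-05, edgeR). PLIN3 was at 0.882 ± 0.045 and 0.531 ± 0.028 (0.83, SE 0.07, adjusted p = 7.40e-05), and PNPLA2 at 0.184 ± 0.0046 and 0.116 ± 0.0044 (0.75, SE 0.11, adjusted p = 0.00140). PLIN2, PLIN3 and PNPLA2 were thus higher in the cluster with more MYOG, and no library of cluster 3 reached those of cluster 12. This holds for this pair of clusters. Over all clusters, shallow ones included, Pearson's r with MYOG on log2 levels was -0.09 for PLIN2, 0.48 for PLIN3 and -0.04 for PNPLA2. PLIN2 and PNPLA2 were highest in cluster 8, where the 6 myocyte markers summed to only 0.568 ± 0.025 UMIs per 10000.

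FABP5 was lower in cluster 12 than in cluster 3, at 0.344 ± 0.032 against 0.571 ± 0.0092 (log2 fold change -0.64, SE 0.09, adjusted p = 0.00114, edgeR). FABP3 was at 5.39 ± 0.11 and 5.67 ± 0.084, with a log2 fold change of 0.03 (SE 0.05, adjusted p = 0.709) that changed sign with plain totals (-0.07). FABP4 (-0.88, SE 0.30, adjusted p = 0.0544) and LPL (-1.07, SE 0.40, adjusted p = 0.0747) missed the threshold in the fit behind the values given here and passed it with the library as a block (adjusted p = 0.0190 and 0.0134; ranges over the alternatives 0.0190 to 0.349 and 0.0134 to 0.333). FABP4 also passed it without a filter on low counts and with plain totals (adjusted p = 0.0430 and 0.0345). CD36 was not tested. Of 7 genes tested, 3 were called higher and 1 lower, against 18.2% and 15.6% of all genes. With the block 3 were called higher and 3 lower, against 23.7% and 22.3%.

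**Figure D4:**
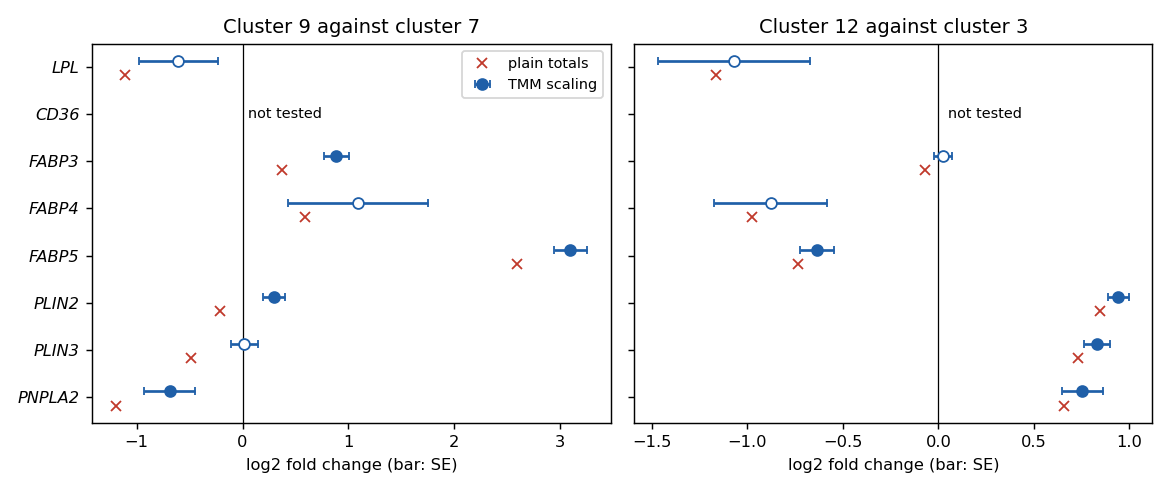
Log2 fold change (horizontal axes) of each gene (vertical axis) in cluster 9 against cluster 7 and in cluster 12 against cluster 3; circles with SE bars are edgeR estimates with TMM scaling, filled where the adjusted p is under 0.05, and crosses are the estimates with plain totals. Between clusters 9 and 7 the crosses lie left of the circles for all 7 genes and on the other side of 0 for PLIN2 and PLIN3; between clusters 12 and 3 PLIN2, PLIN3 and PNPLA2 lie from 0.66 to 0.94 under either scaling.

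Of 58 other genes of fatty acid handling listed by role, 54 were in the feature list. In cluster 9, 8 of 47 tested were called higher and 24 lower, where 25.3% and 27.7% of all genes were, with a median log2 fold change of -0.31 against -0.04 over all genes. PPARG, the regulator of adipogenesis, was at 0.288 ± 0.017 UMIs per 10000 (log2 fold change 3.85, SE 0.08, adjusted p = 1.56e-06, edgeR). ACSL5, which joins fatty acids to coenzyme A, was at 0.719 in both libraries (3.00), and ACSL6, ACSL4 and ACSL1 of the same family were called higher too. ACSL3, which had the most UMIs of the family (32327 in all cells), was called lower.

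FITM1, which promotes droplet formation in muscle, was lower in cluster 9 (-3.09, SE 0.15), as were FABP7 (-2.76), the brain form of the binding proteins, and MGLL (-2.46), which completes lipolysis. By role, 4 of 14 uptake and activation genes were called higher and 7 lower, 2 of 18 oxidation genes higher and 9 lower, 1 of 6 droplet genes higher and 3 lower, 2 of 4 lipolysis genes lower, and 1 of 5 regulators higher and 3 lower. Of the uptake and activation genes, the share called higher was thus near that of all genes. The lower oxidation genes included ACADM, HADHA, HADHB and ACADVL, enzymes of mitochondrial β-oxidation.

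**Figure D5:**
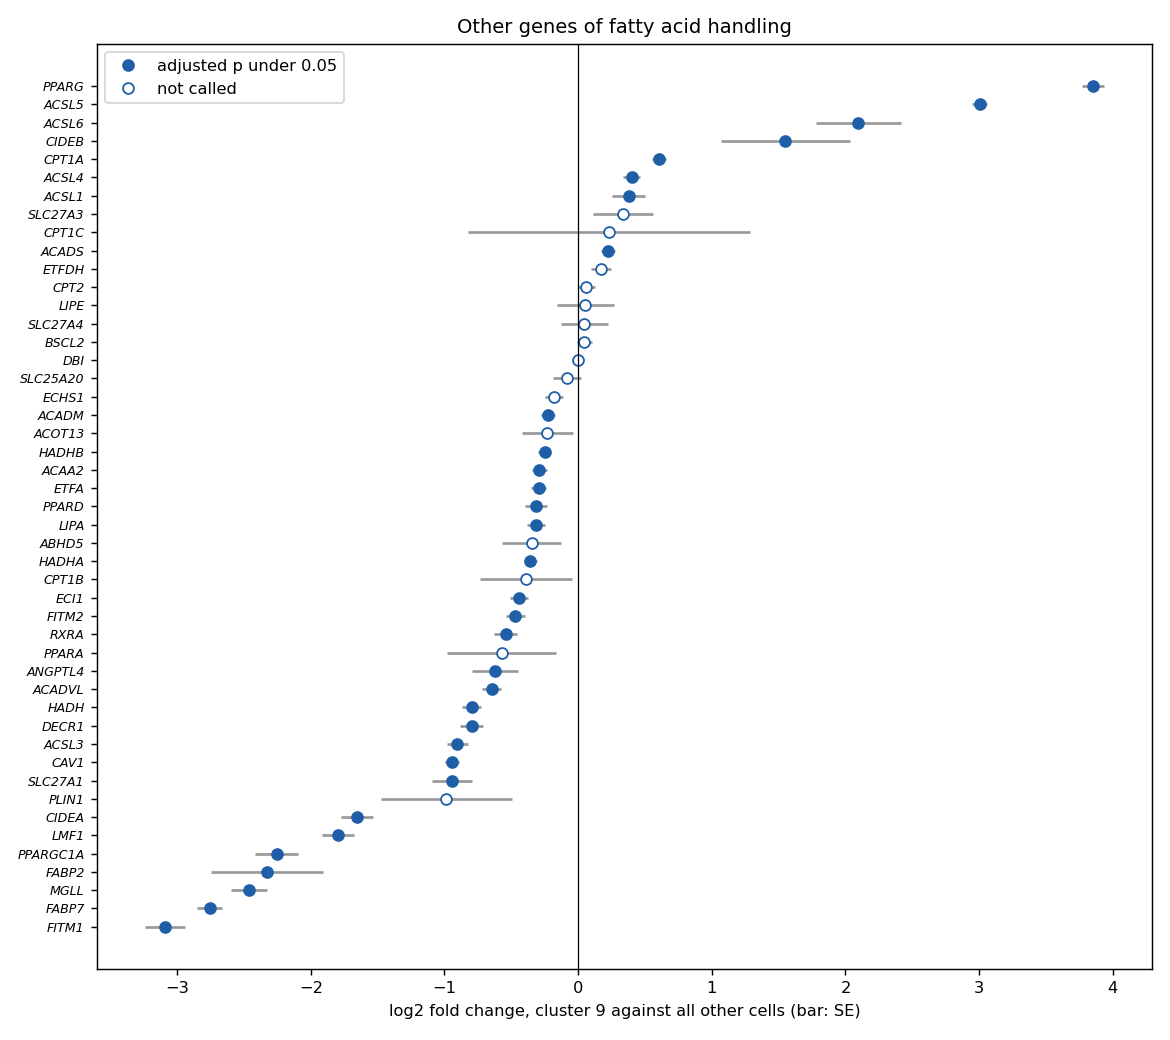
Log2 fold change in cluster 9 against all other cells (horizontal axis) of the 47 other fatty acid genes tested (vertical axis, sorted), with SE bars; filled points have an adjusted p under 0.05. PPARG (3.85) and ACSL5 (3.00) stand at the top and FITM1 (-3.09) at the bottom, with 24 filled points below 0 and 8 above.

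Between clusters 9 and 7, 11 of 40 genes of that list were called higher and 16 lower, where 29.9% and 26.6% of all genes were. With plain totals 5 and 23 were called, where 17.7% and 42.5% of all genes were. The largest fitted changes called were in ABHD5, MGLL (-2.94), PPARGC1A (-2.67), LMF1 (-2.47) and FITM1 (-2.25). ABHD5, the activator of PNPLA2, had 0 UMIs in cluster 7, which at its depth allows a level of up to 0.0142 UMIs per 10000, and 0.0187 ± 0.0044 in cluster 9, so that no fold change is given. LMF1, a chaperone that LPL needs for folding, was at 0.524 ± 0.047 in cluster 7 and 0.0675 ± 0.014 in cluster 9.

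Between clusters 12 and 3, 11 of 41 genes of the list were called higher and 5 lower, where 18.2% and 15.6% of all genes were. CPT1B, the muscle enzyme that passes fatty acids into mitochondria, was higher (2.35, SE 0.42, adjusted p = 0.00379, edgeR) at 0.0193 ± 0.0020 UMIs per 10000 against 0.00398 ± 0.00040. It was scarce, with 189 UMIs in all cells. CPT1A of the same family, with 8922 UMIs in all cells, was called lower. CIDEA, a droplet protein, was higher at 0.459 ± 0.0023 against 0.186 ± 0.016 (1.40), and so were MGLL (1.34) and ABHD5 (1.28), while CAV1 of the caveolae was lower (-1.26). By role, 3 of 4 droplet genes were called higher, 2 of 4 lipolysis genes higher and 1 lower (LIPA, the lysosomal lipase), 3 of 17 oxidation genes higher and 1 lower, 1 of 12 uptake and activation genes higher and 3 lower, and 2 of 4 regulators higher. FITM1 and FITM2 were the other droplet genes called higher.

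Within cluster 9, cells with a PPARG UMI (241 in library 1 and 201 in library 2) were set beside those without (345 and 293), as a description over cells of the same libraries. FABP5 was at 2.09 UMIs per 10000 in library 1 and 1.97 in library 2 in cells with PPARG, and at 2.22 and 2.57 in cells without. FABP4 was at 0.0182 and 0.0170 with PPARG and at 0.0479 and 0.0246 without. A single cell of library 1 held 17 of these FABP4 UMIs. After thinning, where few cells keep a PPARG UMI, FABP5 was at 2.06 and 4.52 with PPARG and 2.33 and 2.16 without, and FABP4 at 0.147 and 0 with PPARG and 0.0272 and 0.0216 without, so the order of both then differed between the libraries. LPL changed sides between the libraries, at 0.0974 and 0.0511 with PPARG and 0.0786 and 0.0739 without.

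Other pairs of these genes were looked at in the same way, a choice made after the levels were seen. In cluster 8, FABP5 was at 0.687 and 0.818 UMIs per 10000 in cells with a FABP4 UMI and 0.443 and 0.459 in cells without. After thinning only 13 cells of cluster 8 kept a FABP4 UMI, too few to show whether that order held. The values were then 0 with and 0.394 without in library 1, and 1.11 and 0.405 in library 2. Before thinning FABP5 was also higher with FABP4 in both libraries of clusters 1, 2, 4, 6, 10 and 12. It changed sides between the libraries in clusters 3, 5, 9 and 11. After thinning, FABP5 was higher with FABP4 in both libraries of cluster 2 only, and lower in both of cluster 11. Few cells then kept a FABP4 UMI, 38 in cluster 2 and 10 in cluster 11. PLIN2 differed little by PNPLA2 in cluster 8, at 3.04 and 2.72 in cells with a PNPLA2 UMI and 3.03 and 3.01 in cells without. In cluster 2, FABP3 was at 5.08 in both libraries in cells with MYOD1. It was at 4.40 and 2.66 in the shallower cells without, which numbered only 30 and 14. After thinning the 4 values were 5.20 and 5.23 with MYOD1 and 4.83 and 4.80 without. Other clusters differed. After thinning, FABP3 was higher with MYOD1 in both libraries of clusters 1 and 10 too, and lower in both of clusters 3, 8 and 12. The libraries disagreed in clusters 4, 5, 6, 9 and 11.

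Of 8726 genes with at least 1000 UMIs, those whose log2 level over the 15 clusters was most like each of the 8 were taken by Pearson's r, as a description. FABP5 was followed by HPRT1 (0.91), RSL24D1 (0.90) and ENOPH1 (0.90), and HPRT1 was also its nearest by rank. FABP3 was nearest to ANP32A, ZMAT2 and TUBA4A (0.90, 0.90 and 0.89), and PLIN2 to ANXA2 (0.92), CUTA and HAX1 (both 0.91). PLIN3 was nearest to IDH3A (0.88), MICU2 (0.87) and TXLNG (0.85). For these 4 genes r was 0.80 or more in either library alone.

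The scarce genes had less stable neighbours. PNPLA2 was nearest to THAP8 (0.91), TEX264 (0.89) and FAM214A (0.89), and THAP8 fell to 0.22 and 0.50 in single libraries. LPL was nearest to MBOAT1, AKAP12 and CEPT1 (0.94, 0.94 and 0.93), with MBOAT1 at 0.10 and 0.29 in single libraries. FABP4 was nearest to PPA2 (0.83), IFT27 (0.80) and CFAP298 (0.80), and CD36 to TAB2 (0.87), ZNF521 (0.86) and THAP5 (0.86), where PPA2 was at 0.67 and 0.22 and TAB2 at 0.53 and 0.57 in single libraries. Among the 8 genes themselves the highest r was 0.67, between FABP3 and PLIN3, followed by 0.57 between PLIN2 and PLIN3.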

How the data were processed

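Single-cell RNA sequencing data from 2 libraries of cultured satellite cells of 1 calf were used. The authors aligned reads to ARS-UCD1.2, counted UMIs and combined the libraries at equal mapped depth with Cell Ranger 3.0.2; the deposited counts are whole UMIs per gene and cell, with no doublet removal stated. The deposited averages per cluster are a score, UMI counts scaled by the authors to a common total of 14889. The authors' fold changes and p-values in the same table were not used. Barcode suffixes gave the library. The averages convert to UMI sums within 0.00011 of whole numbers and fixed the cluster of every cell, with 0 of 252240 sums differing.

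UMIs were summed per library and cluster and tested with edgeR 4.0.16 (filterByExpr, TMM, quasi-likelihood, Benjamini-Hochberg, adjusted p under 0.05), checked on simulated data. The simulated sums were drawn independently, with as many genes raised as lowered. They could thus not test the pairing of the libraries or the scaling of cluster 7. The comparisons were each cluster against all other cells, cluster 9 against 7 and cluster 12 against 3. Alternatives were no filter, RLE, plain totals, DESeq2 1.42.0, a library block, best fitting profiles, and leaving out cells under 2000 UMIs, doublets, shared barcodes or a library, and equal weights for the other clusters. Library numbers pair the sums: ratios between the libraries correlated at 0.167 to 0.669 between a cluster and all other cells. The main fit left this pairing out, and only the library block took it into account. Scrublet's automatic thresholds marked 1 cell, so the highest scores in each library, at an expected rate of 8%, were taken (1397 cells), a choice made after this was seen; they were kept in all other values. Likeness used log2(level + 0.01).

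The 8 genes and the lists were chosen with earlier results of these data known. All 8 genes are named; fold changes of 1 or more (log2, absolute) are given for called clusters, with selected smaller ones, and all values for both pairs of clusters. From the list of other fatty acid genes, the 5 largest called changes per comparison are named, with family members chosen after their values were seen. GPIHBP1, HILPDA, G0S2 and ETFB were not analysed here. Exact intervals are at 95%. A count of 0 was read as allowing 3 counts.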

Additional observations from a re-analysis of the deposited data

How the results depend on the processing

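For the 33 named fold changes, 348 of 381 alternative values kept their direction and their side of the threshold, 18 were no longer called, 5 became called and 10 changed sign. The sign changes were in cluster 9 against cluster 7 for PLIN2 (-0.21 with plain totals), for LPL (from -1.15 to 0.47 without replicate 1 or 2; cluster 7 holds 9 of its UMIs in library 1) and for PLIN3 (-0.0297 with RLE factors, -0.0328 with DESeq2, -0.0698 without doublets and -0.49 with plain totals), and in cluster 12 against cluster 3 for FABP3 (-0.000613 without a filter, -0.0716 with plain totals, -0.00864 with best fitting profiles, and from -0.00823 to 0.00690 without replicate 2 or 1). The cause was not tested. Against all other cells the counts of 21 higher and 42 lower pairs stayed within 1.5 times, with 25 and 45 under the library block. That block also called more of all genes in every cluster, both higher and lower. Of the 63 pairs called in the main fit, 20 lost their call under at least 1 alternative. The other 43 lost it under none that gave an adjusted p. Between clusters 9 and 7 the higher calls fell from 3 to 2 under some alternatives, RLE factors and plain totals among them. RLE factors called 3114 and plain totals 1904 of all 10785 genes tested higher, against 3229 in the main fit. The lower calls there went from 1 to 0 without a filter, with DESeq2, with the library block and with best fitting profiles. They also went to 0 without cells under 2000 UMIs, and to 3 with plain totals. Of all genes, 2864 of 10785 were called lower there in the main fit. Without a filter it was 2766 of 14953, with DESeq2 2402 and with the block 2839 of 10785, and with best fitting profiles 2904 of 10774. Without cells under 2000 UMIs it was 1817 of 10582, and with plain totals 4587 of 10785. Between clusters 12 and 3 the lower calls went from 1 to 2 without a filter and with plain totals and to 3 with the library block. Of all genes, 1687 of 10811 were called lower there in the main fit. It was 1958 of 15093 without a filter, and 2527 and 2411 of 10811 with plain totals and the block. With 1 library left out, no residual degrees of freedom remained, so only ratios were computed. Without cells under 2000 UMIs cluster 15 gives no value. Best fitting profiles, by which 85.5% of cells kept their cluster, moved FABP3 in cluster 3 to 5.76 and PLIN2 in cluster 8 to 2.82. Thinning lowers shares by construction, to 59.1% for FABP3 in cluster 3, 1.76% for FABP4 in cluster 1, 31.0% for FABP5, 2.13% for LPL in cluster 9, 0.403% for CD36, 41.3% for PLIN2 and 5.32% for PNPLA2 in cluster 8, and 14.7% for PLIN3 in cluster 12. By Spearman's rank correlation the nearest gene differed for FABP3, FABP4, CD36, PLIN2, PLIN3 and PNPLA2. Depth limits CD36, LPL and FABP4, and clusters 7, 13, 14 and 15.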
